A study of Mus musculus with 3530 samples.

Results

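Cd63, Cthrc1, Plpp4, Slc24a3, Rpp25, Nt5dc2, Cenpa and Hbegf are 8 of the 23354 genes counted in single neurons of the mouse medial prefrontal cortex. They were chosen by the difference in their own counts, which were higher in neurons sorted as positive for an activity reporter than in neurons sorted as negative from the same animals. No shared function was used in that choice. The difference between the sorting gates therefore chose these genes, and it is given below as a description without a test. Their levels across neuron classes are given the same way, because the gates also differ in class. The tests rest on other animals, on reporter reads and on the conditions of the experiment.

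The mice carried TRAP2, an inducible recombinase driven from the Fos locus, together with Ai14, a tdTomato reporter that stays on after recombination, and all groups share both alleles. A cell is thus marked if its Fos locus was active while the inducer was present, and the marking outlasts the activity. The experiment used contextual fear conditioning. By their labels, animals fell into Fear-Recall (1167 cells of 4 animals), Fear-Only (805 cells of 4), Context-Only (912 cells of 5) and Homecage (434 cells of 4). The labels give neither age nor sex nor the schedule of training, induction and recall. Tissue was dissociated with papain, and single cells were prepared with Smart-seq2, a plate-based method that reads along the whole transcript. Of the 3318 cells used, 1806 came from the pos gate and 779 from the neg gate, 637 carry no gate name, and 96 lie on a plate that carries both. Each GEO sample is 1 cell, so all comparisons rest on counts summed over the cells of an animal. Conditions are compared between animals, while gates and reporter reads are compared within animals. P-values measure the spread between animals, in levels for conditions and in the difference within an animal for gates and reporter reads. The labels do not say which animals were handled together.

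A cell held 100002 to 6840943 counts (median 838023) and 527 to 10838 genes. The cells formed 21 clusters, 13 excitatory (2201 cells) and 8 inhibitory (1117 cells, 33.7%). Cluster 12, which is inhibitory and unnamed, had a median of 2717.5 genes per cell over its 138 cells and is called the low-gene cluster. Reporter reads were found in 23.5% to 96.9% of pos cells and 7.27% to 12.8% of neg cells of the 8 animals that have both gates. In these sums fewer cells of a type and less RNA per cell cannot be told apart.

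The 8 genes act in separate parts of the cell. Hbegf encodes a membrane-anchored growth factor of the EGF family, which is cut from the surface and binds the receptors Egfr and Erbb4. Cthrc1 encodes a secreted glycoprotein with a collagen-like stretch that acts in the planar polarity branch of Wnt signalling. Cd63 is a tetraspanin of late endosomes, lysosomes and secreted vesicles. Plpp4 is a membrane phosphatase of phospholipids, and Slc24a3 is an exchanger that trades sodium for calcium and potassium across the membrane. Rpp25 is a protein subunit of RNase P and RNase MRP, the ribonucleoprotein enzymes that process transfer and ribosomal RNA precursors. Cenpa is the histone H3 variant that marks centromeres. Nt5dc2 carries a 5'-nucleotidase domain, and its work in the cell is poorly understood. Cortical inhibitory neurons, which will matter below, release GABA and fall into classes named for Vip, Sst, Pvalb, Lamp5 and Sncg.

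Promoters are shown for 4 of the genes, because the reporter rests on an activity-driven promoter and these genes were chosen together. RefSeq (GRCm38.p6) promoters matched 6 of the 8 genes, and Cthrc1 and Hbegf had no entry. The 250 bases before the RefSeq start are given 5′ to 3′ on the plus strand, which is the coding strand of these genes. They lie at chr10:128909095-128909344 for Cd63, chr7:129256844-129257093 for Plpp4, chr9:57503852-57504101 for Rpp25 and chr5:30666636-30666885 for Cenpa. Capitals mark every match to TGACG, the core of the cyclic AMP response element, or to GGGCGG, the SP1 site, on either strand, and matches may overlap.
Cd63: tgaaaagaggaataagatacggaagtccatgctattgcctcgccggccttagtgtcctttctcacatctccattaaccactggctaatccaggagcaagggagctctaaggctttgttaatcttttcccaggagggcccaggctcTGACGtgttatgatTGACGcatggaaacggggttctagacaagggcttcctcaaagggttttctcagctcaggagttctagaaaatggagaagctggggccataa
Plpp4: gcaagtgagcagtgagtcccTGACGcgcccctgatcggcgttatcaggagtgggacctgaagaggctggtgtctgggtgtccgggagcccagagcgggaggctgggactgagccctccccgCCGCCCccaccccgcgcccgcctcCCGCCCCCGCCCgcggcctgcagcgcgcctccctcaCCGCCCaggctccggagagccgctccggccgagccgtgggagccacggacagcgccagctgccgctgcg
Rpp25: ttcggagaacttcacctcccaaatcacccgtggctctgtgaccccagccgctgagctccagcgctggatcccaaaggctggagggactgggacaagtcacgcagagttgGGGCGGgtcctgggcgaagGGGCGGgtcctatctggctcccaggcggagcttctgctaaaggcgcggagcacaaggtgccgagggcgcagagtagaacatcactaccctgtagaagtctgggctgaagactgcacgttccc
Cenpa: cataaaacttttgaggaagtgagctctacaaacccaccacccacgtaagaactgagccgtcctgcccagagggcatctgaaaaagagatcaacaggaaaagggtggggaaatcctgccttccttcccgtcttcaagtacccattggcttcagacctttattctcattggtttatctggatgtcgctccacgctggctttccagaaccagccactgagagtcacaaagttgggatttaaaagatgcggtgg

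Cd63 held 2 matches to TGACG and none to GGGCGG, and Plpp4 held 1 to TGACG and 4 to GGGCGG. Rpp25 held 2 to GGGCGG, while Cenpa held neither and had 2 matches to CCAAT. Over all 32851 RefSeq promoters of the same length, 17.8% held TGACG, 32.7% held GGGCGG and 33.9% held CCAAT. The full response element TGACGTCA, found in 1.55% of all promoters, and the AP-1 motif TGANTCA, found in 6.75%, had no match in any of the windows of the 6 genes. The EGR motif GCGGGGGCG, found in 2.57%, matched in Slc24a3 (3 times) and Plpp4 (1). The windows of Cd63 and Cenpa had a GC content of 48.8% each, those of Rpp25 62.4% and Plpp4 75.6%, against a median of 52.4% over all promoters. These matches describe letters in a window. The RefSeq start used for Cd63 lies inside the longer gene interval of GENCODE vM21, so transcripts that start further upstream have another promoter. The windows of Plpp4, Rpp25 and Cenpa also run past the GENCODE start of their gene. That of Cenpa ends at base 30666885, while its gene starts at base 30666777. In that annotation (GRCm38) Cd63 spans bases 128900989 to 128912822 of chromosome 10, Plpp4 bases 129257031 to 129391412 of chromosome 7 and Rpp25 bases 57504026 to 57505448 of chromosome 9. Slc24a3 spans bases 145167754 to 145642166 of chromosome 2, Nt5dc2 bases 31131053 to 31139124 of chromosome 14 and Cenpa bases 30666777 to 30674830 of chromosome 5. All are protein-coding and on the plus strand.

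All 8 genes were higher in pos than in neg neurons in each of the 8 animals with both gates, against 1.73% of 17752 genes, a share that says nothing further here since this contrast chose the genes. The same holds of edgeR's quasi-likelihood test, which passed 0.287% of genes in this contrast and all 8 of these. Levels are CPM, which is counts scaled to a fixed library total, here with TMM factors, summed over all neurons of an animal and gate. Ratios are means over animals of log2(CPM + 1) in pos minus neg.

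The growth factor gene Hbegf was at 20.7, 28.6 and 54.0 CPM in pos neurons (lowest, median and highest of 8 animals), against 5.35, 8.27 and 11.3 CPM in neg neurons. No neg value reached the lowest pos value, and the mean log2 ratio was 1.83 ± 0.70 (SD, n = 8), a 3.57-fold difference. Between reporter-read pos and reporter-free neg cells the mean log2 ratio of Hbegf was 0.77, while the other 7 genes moved by less than their spread between animals. Cthrc1, the secreted Wnt partner, was at 20.2, 33.8 and 52.6 CPM in pos neurons, against 6.09, 14.6 and 17.2 CPM in neg neurons. Its groups did not overlap either, at a mean log2 ratio of 1.34 ± 0.46. Hbegf lies on the minus strand of chromosome 18 between bases 36504927 and 36515805, and Cthrc1 on the plus strand of chromosome 15 between bases 39076932 and 39087121, both protein-coding (GENCODE vM21, GRCm38).

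Cd63, the vesicle tetraspanin, was at 54.5, 109 and 215 CPM in pos neurons, against 23.4, 31.5 and 66.2 CPM in neg neurons. The groups overlapped because the pos value of Context-Only animal 4 lay below the neg values of Context-Only animals 2 and 3, and the mean log2 ratio was 1.64 ± 0.55. The phospholipid phosphatase gene Plpp4 was at 7.76, 34.3 and 65.0 CPM in pos neurons, against 3.38, 13.95 and 33.7 CPM in neg neurons. Homecage animal 2 held the lowest value of Plpp4 in each gate, and the mean log2 ratio was 1.32 ± 0.46. For the exchanger gene Slc24a3, values were 38.3, 60.2 and 93.4 CPM in pos neurons, against 14.9, 33.3 and 60.3 CPM in neg neurons. It had the smallest ratio of the 8 genes and the smallest spread, 0.91 ± 0.27.

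Cenpa, the centromeric histone gene, had the largest ratio. Its values were 15.5, 31.6 and 46.5 CPM in pos neurons, against 2.41, 8.22 and 14.4 CPM in neg neurons, without overlap and with a mean log2 ratio of 2.09 ± 0.78, a 4.25-fold difference. Rpp25, the RNase P subunit gene, was at 77.6, 125 and 202 CPM in pos neurons, against 37.0, 49.95 and 121 CPM in neg neurons (mean log2 ratio 1.08 ± 0.42). Context-Only animals 2 and 3 had the highest neg values of Rpp25, above the lowest pos value. Nt5dc2 was at 10.5, 15.1 and 48.3 CPM in pos neurons, against 1.87, 4.88 and 10.2 CPM in neg neurons (1.70 ± 0.60), and its groups did not overlap. Of all genes, 0.0845% had every pos value above every neg value, and 4 of these 8 did (Cthrc1, Nt5dc2, Cenpa and Hbegf).

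**Figure D1:**
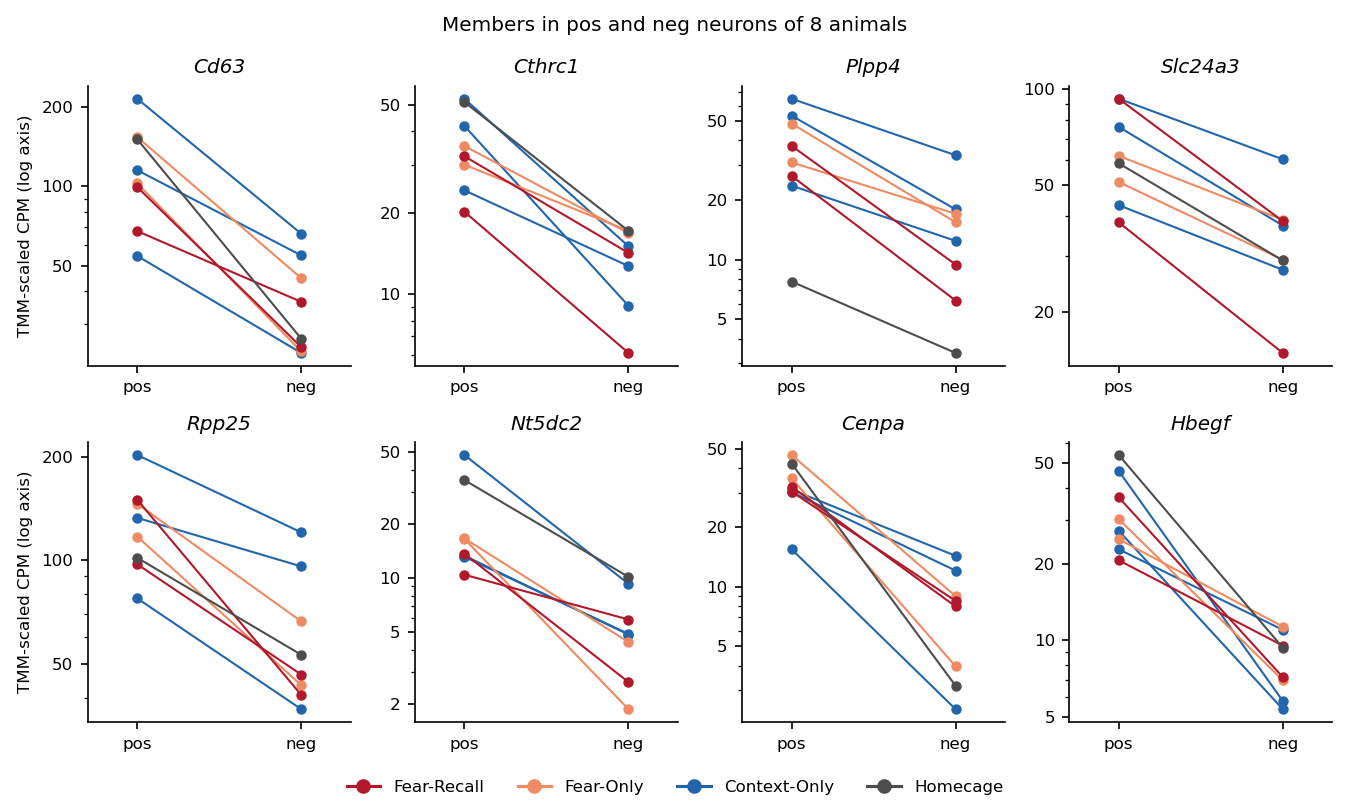
TMM-scaled CPM (log axis) of the 8 genes in pos and neg neurons, with 1 line for each of 8 animals, coloured by condition. Every line falls to the right, from pos to neg, and in Cthrc1, Nt5dc2, Cenpa and Hbegf no neg point reaches the lowest pos point.

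The gates also differed in ways other than these genes. Inhibitory neurons made up 39.3% ± 5.06 of pos cells and 20.1% ± 4.63 of neg cells (SD, n = 8), with the pos share higher in 8 of 8 animals. In 7 of the 8 animals no plate held cells of both gates, so gate and plate cannot be told apart there. The exception was Context-Only animal 4, whose gates shared a plate, with Hbegf at 22.9 CPM in pos and 11.01 CPM in neg neurons. This animal is part of the contrast that chose the genes, so its direction was set by that choice. It cannot separate gate from plate, and the part of plate was not tested. The summed markers of inhibitory neurons (10 genes) ranged from 1099 to 1489 CPM in pos and from 513 to 1020 CPM in neg neurons. The Vip list (7 genes) summed to 6734 to 12190 CPM in pos and 1736 to 6746 CPM in neg neurons, and the Sst list (7 genes) to 575 to 1654 CPM in pos and 85.9 to 532 CPM in neg neurons, each higher in pos in 8 of 8 animals. Among other cell types, the astrocyte list (10 genes) summed to 547 to 694 CPM in pos and 407 to 721 CPM in neg neurons, with 10 of 10 genes higher on average in pos, and its defining markers Aqp4 and Gfap were under 1 CPM in both gates. Microglial markers summed to 24.4 to 47.9 CPM in pos and 20.7 to 74.9 CPM in neg neurons, with Cx3cr1, Tmem119 and Csf1r under 1 CPM. The part of these lists in the gate difference was not tested.

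The 8 genes shared a class preference that the choice by gate did not name. Each was higher in inhibitory than in excitatory neurons in 15 of 15 animals with 10 or more inhibitory cells. That pattern was seen in 4.86% of all genes, and since the pos gate held more inhibitory neurons it is no independent property of the 8. Plpp4 was nearly restricted to inhibitory neurons, at 98.0 CPM on average against 0.194 CPM in excitatory neurons. Cd63 averaged 238 CPM in inhibitory and 5.24 CPM in excitatory neurons, and Rpp25 averaged 344 CPM in inhibitory and 9.32 CPM in excitatory neurons. For Cenpa the means were 64.4 CPM in inhibitory and 3.47 CPM in excitatory neurons, and for Hbegf 54.2 CPM in inhibitory and 4.12 CPM in excitatory neurons. Nt5dc2 averaged 34.9 CPM in inhibitory and 2.83 CPM in excitatory neurons.

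Slc24a3 and Cthrc1 stood closer between the classes. Slc24a3 averaged 100.6 CPM in inhibitory and 29.3 CPM in excitatory neurons, and Cthrc1 averaged 46.2 CPM in inhibitory and 18.5 CPM in excitatory neurons. The highest excitatory value of Cthrc1 over animals, 39.0 CPM, lay above its lowest inhibitory value of 22.1 CPM. Nt5dc2 and Cenpa overlapped as well, while the other 5 genes did not. The share of all genes without overlap between the classes was not computed. Shares of cells with a read were then compared at 1 depth. With every cell thinned to 100000 reads, Plpp4 was found in 30.1% of inhibitory cells (exact 95% interval 27.4 to 32.9) and 0.636% of excitatory cells (0.348 to 1.07). Rpp25 was found in 87.1% (85.0 to 89.0) of inhibitory and 15.2% (13.7 to 16.8) of excitatory cells, and Cthrc1 in 29.5% (26.9 to 32.3) of inhibitory and 21.1% (19.4 to 22.9) of excitatory cells. The intervals of inhibitory and excitatory cells did not overlap for any of these 3 genes. Unthinned, the shares in inhibitory and then excitatory cells were 31.2% and 0.727% for Plpp4, 87.8% and 17.4% for Rpp25, and 30.9% and 23.3% for Cthrc1. Intervals cover counting error only.

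**Figure D2:**
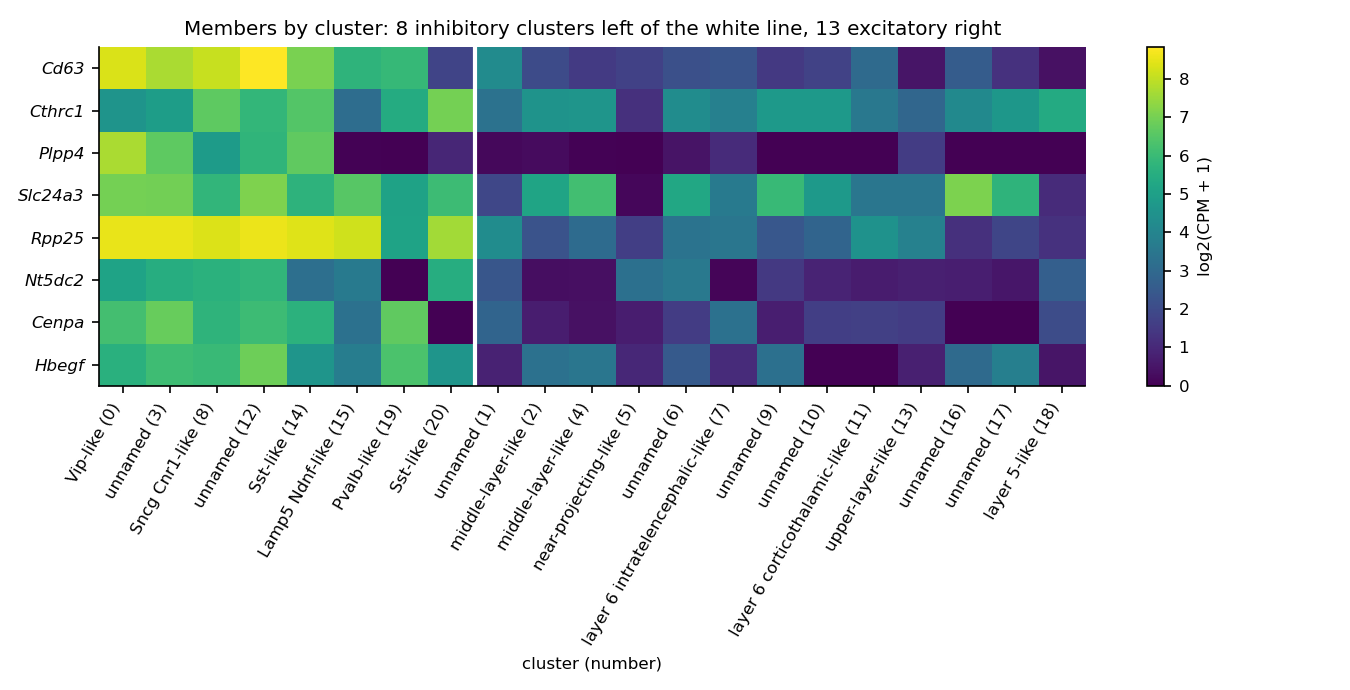
Pooled level of the 8 genes, as log2(CPM + 1), in each of 21 clusters, with inhibitory clusters left of the white line. Most rows are brightest in inhibitory clusters, Plpp4 is near 0 in the Lamp5 Ndnf-like and Pvalb-like clusters, and Slc24a3 and Cthrc1 reach into several excitatory clusters.

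Within inhibitory neurons the genes parted by class. Levels are given over animals with 10 or more cells in a cluster, and the Pvalb-like cluster (48 cells) and the second Sst-like cluster (26 cells) had no such animal, so they have pooled values. Plpp4 was highest in the Vip-like cluster, at 230 ± 93.6 CPM (SD, n = 12 animals), followed by the unnamed cluster 3, led by Car4 and Zbtb20, at 99.9 ± 37.6 CPM (n = 8) and the larger Sst-like cluster at 99.6 ± 67.1 CPM (n = 5). These 3 overlapped in range. The Sncg Cnr1-like cluster stood at 25.0 ± 19.8 CPM (n = 7), the Lamp5 Ndnf-like cluster was listed at 0.0 CPM in 3 animals, and no read fell in the 48 Pvalb-like cells.

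Cd63 was highest in the low-gene cluster, at 474 ± 143 CPM (n = 4), although only 48.6% of its cells held a read, and in the Vip-like cluster it stood at 309 ± 87.0 CPM with 89.4% of cells. The Sncg Cnr1-like cluster (282 ± 138 CPM, n = 7) and cluster 3 (223 ± 46.4 CPM, n = 8) overlapped the Vip-like range, as did the low-gene cluster. The larger Sst-like cluster had 144 ± 65.6 CPM (n = 5), and the Lamp5 Ndnf-like cluster, at 37.0 to 46.9 CPM in 3 animals, lay below every animal of the larger Sst-like cluster. The second Sst-like cluster was lower still, with a pooled 2.48 CPM and a read in 15.4% of cells. Rpp25 was more even, from 386 ± 180.1 CPM in the Vip-like to 191 ± 24.5 CPM (n = 3) in the Lamp5 Ndnf-like cluster, with overlapping neighbours, and a pooled 33.7 CPM in Pvalb-like cells.

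Cthrc1 was led by other clusters. Its highest means were in the larger Sst-like cluster, at 83.5 ± 47.3 CPM (n = 5), and in the Sncg Cnr1-like cluster, at 77.0 ± 39.7 CPM (n = 7), and the second Sst-like cluster had a pooled 125 CPM. The Vip-like cluster stood at 22.3 ± 16.5 CPM (n = 12) and the Lamp5 Ndnf-like cluster at 0.710 ± 1.17 CPM (n = 3). Animals of the larger Sst-like cluster ranged from 32.8 to 148 CPM and overlapped those of the Vip-like cluster, at 0.0 to 50.7 CPM. Over all 107 cells of the Lamp5 Ndnf-like cluster, smaller animals included, the pooled level was 7.96 CPM, with a read in 12.2% of cells. Among excitatory clusters, Cthrc1 was found at a pooled 41.1 CPM in the layer 5-like cluster and at 1.36 CPM in the near-projecting-like cluster. Slc24a3 was at 126 ± 48.1 CPM in the Vip-like cluster (n = 12), and 2 animals had 69.98 and 155 CPM in the unnamed excitatory cluster 16, within the Vip-like range. In the near-projecting-like cluster Slc24a3 had a pooled 0.1201 CPM.

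Cenpa was at 100.1 ± 47.3 CPM in cluster 3 (n = 8) and at 64.9 ± 36.9 CPM in the Vip-like cluster (n = 12). In the Pvalb-like cluster 70.8% of cells held a Cenpa read. The Lamp5 Ndnf-like cluster stood at 3.37 ± 3.96 CPM (n = 3), and no read was found in the 26 cells of the second Sst-like cluster. Hbegf was highest in the low-gene cluster (103 ± 52.2 CPM, n = 4) and in cluster 3 (67.6 ± 25.7 CPM, n = 8), with a pooled 80.7 CPM in Pvalb-like cells, and reached no more than a pooled 13.01 CPM in an excitatory cluster (the unnamed cluster 17). Nt5dc2 was at 55.1 ± 14.2 CPM in the Sncg Cnr1-like cluster (n = 7), against 3.32 ± 2.35 CPM in the larger Sst-like cluster (n = 5), and no read fell in the Pvalb-like cells. The second Sst-like cluster differed from the larger one, with a pooled 44.2 CPM of Nt5dc2 and a read in 42.3% of cells. The single-cell counts of the 8 genes overlapped in inhibitory neurons, where a cell held reads of a median of 4 of them and 80.6% of cells held 3 or more. In excitatory neurons the median was 1, and 6.32% held 3 or more.

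Over the 20 clusters of 30 or more cells, the genes fell together to different degrees. Rpp25 and Cd63 ran closest (Pearson r = 0.93 of log2(CPM + 1)), followed by Cenpa with Cd63 (0.90), and Slc24a3 with Nt5dc2 the least (0.24). These values describe clusters that share libraries and carry no test. Among 8288 genes with a mean of at least 10 CPM over clusters, Pnoc and Sox2 were the nearest to both Cd63 (0.94 each) and Rpp25 (0.94 and 0.93). Plpp4 was nearest to Calb2 (0.90), which encodes a calcium-binding protein of many Vip neurons, and also to Shisa6 (0.90) and Grpr (0.89). Hbegf was nearest to G0s2 (0.955), Thsd7a (0.90) and BC030500 (0.88), and Cenpa to Ddit3 (0.94), Pcp4l1 (0.93) and Nupr1 (0.92). Nt5dc2 was nearest to Igf1 (0.91), Sat2 (0.88) and Resp18 (0.87), and Slc24a3 to Parva (0.85), Gng4 (0.84) and Cxadr (0.81). Cthrc1 had the lowest likeness to any gene, with Tmem128 (0.77), Trpc4 (0.76) and Rab30 (0.74).

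Within each class, the gate difference split the 8 genes. In inhibitory neurons of the 6 animals with 10 or more inhibitory cells in each gate, Cthrc1, Cenpa, Hbegf, Cd63 and Plpp4 were higher in pos in 6 of 6, which 4.77% of genes showed. Slc24a3 and Nt5dc2 were higher in 5 of 6 and Rpp25 in 4 of 6. In excitatory neurons of 8 animals, Cthrc1 and Cenpa were higher in pos in 8 of 8, which 1.11% of genes showed, and Hbegf was higher in 7. Slc24a3 and Nt5dc2 were higher in 6 of 8, Cd63 and Rpp25 in 4, and Plpp4 in 2. Plpp4 had no excitatory read in either gate in Context-Only animals 3 and 4 and Fear-Only animal 2, so these were neither higher nor lower. These counts come from the contrast that chose the genes.

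Cthrc1 showed the gate difference in both classes. In inhibitory neurons it was at 28.4, 61.1 and 116 CPM in pos, against 4.64, 19.7 and 38.2 CPM in neg (lowest, median and highest of 6 animals), with a mean log2 ratio of 1.80 ± 0.71. In excitatory neurons it was at 15.1, 21.1 and 25.6 CPM in pos, against 6.41, 11.7 and 15.7 CPM in neg, with a ratio of 0.81 ± 0.54 (n = 8). Its groups overlapped in each class, and no animal turned direction. Cenpa in inhibitory neurons was at 72.0, 84.3 and 95.5 CPM in pos, against 9.92, 38.5 and 56.0 CPM in neg, without overlap (1.26 ± 0.99). Homecage animal 2 alone had a ratio of 3.11. The share of all genes without overlap of pos and neg values in inhibitory neurons was not computed. In excitatory neurons Cenpa was low in both gates, at 0.0652, 4.20 and 7.59 CPM in pos and 0.0, 0.867 and 3.17 CPM in neg neurons (1.02 ± 0.87).

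Hbegf in inhibitory neurons was at 45.0, 77.9 and 128 CPM in pos, against 20.7, 32.7 and 43.1 CPM in neg, again without overlap (1.24 ± 0.88). In excitatory neurons it was at 0.0, 5.92 and 11.1 CPM in pos, against 0.0, 1.38 and 2.74 CPM in neg (1.299 ± 1.16), and the exception in direction was Homecage animal 2. Cd63 kept a difference in inhibitory neurons, at 181, 279 and 546 CPM in pos and 74.8, 137 and 367 CPM in neg (1.002 ± 0.73). In excitatory neurons its values were 1.44, 3.31 and 20.3 CPM in pos and 1.86, 3.85 and 11.9 CPM in neg, so the sign of the mean ratio was lost (−0.20 ± 1.23).

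Plpp4 and Rpp25 followed Cd63 in excitatory neurons, with mean log2 ratios of −0.18 ± 0.78 and −0.14 ± 0.91, while their inhibitory ratios were 0.79 ± 0.42 and 0.33 ± 0.50. In excitatory neurons Plpp4 averaged only 0.291 CPM in pos and 0.536 CPM in neg, so the sign of its ratio there carries little. Slc24a3 had like ratios in both classes, 0.71 ± 0.71 in inhibitory and 0.69 ± 0.78 in excitatory neurons. Nt5dc2 was at 1.47 ± 1.03 in inhibitory and 0.57 ± 1.36 in excitatory neurons. The difference between the classes was not tested.

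**Figure D3:**
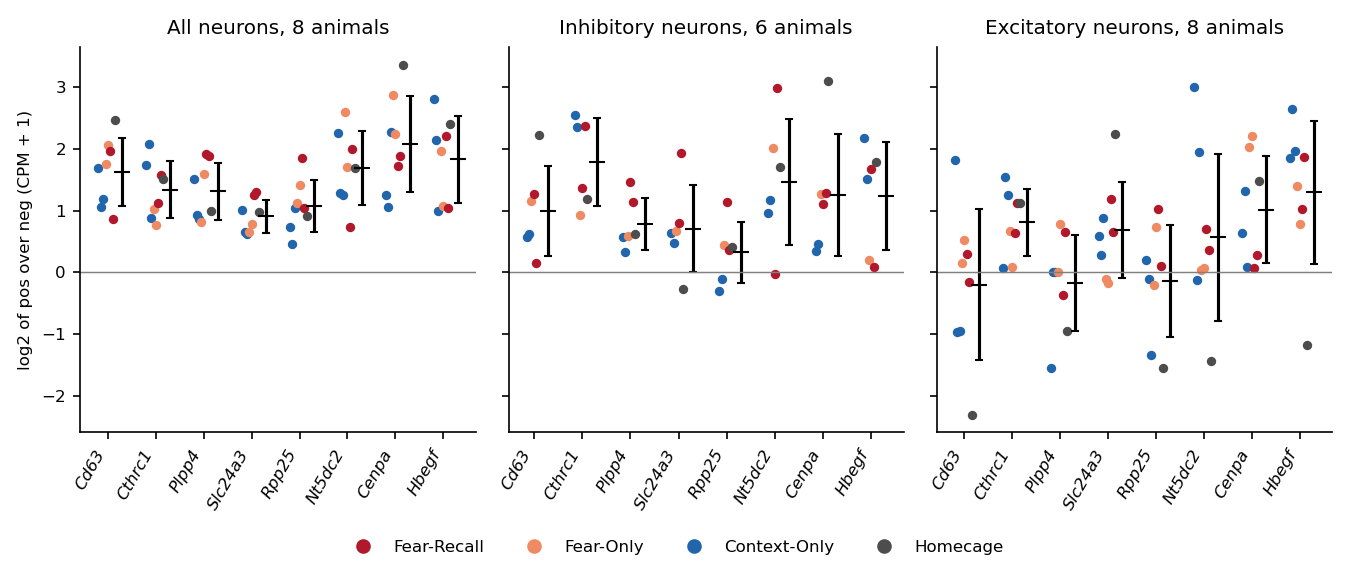
Log2 of pos over neg CPM (CPM + 1) for each gene and animal, in all, inhibitory and excitatory neurons, with the mean and SD as a black cross and bar. Points of Cthrc1 and Cenpa stay above 0 in every panel, while those of Cd63, Plpp4 and Rpp25 scatter on both sides of 0 in excitatory neurons.

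A second reading, chosen after the data were seen, held the clusters apart. If every cluster kept a single level in both gates and only cluster shares differed, the mean log2 ratio of Rpp25 would be 0.92 beside the observed 1.08, and that of Slc24a3 0.71 beside 0.91. For Cd63 it would be 1.10 beside 1.64, for Plpp4 0.75 beside 1.32 and for Hbegf 1.12 beside 1.83. Set against the observed ratio, the ratio from cluster shares was smallest in Cthrc1 (0.48 beside 1.34), Nt5dc2 (0.74 beside 1.70) and Cenpa (0.93 beside 2.09). The observed ratio was above that from shares in 8 of 8 animals for Cthrc1 and Cenpa, in 7 for Cd63, Nt5dc2 and Hbegf, in 6 for Plpp4, in 5 for Slc24a3 and in 4 for Rpp25.

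Averaged within clusters, the mean log2 ratio was 0.99 for Cthrc1, 0.90 for Cenpa, 0.85 for Nt5dc2 and 0.74 for Hbegf. It was 0.41 for Cd63, 0.28 for Plpp4, 0.18 for Slc24a3 and 0.13 for Rpp25. Clusters counted equally in these means, with cells pooled over animals, so they carry no spread between animals. Nt5dc2 stood at 5.94 in the low-gene cluster, whose 12 neg cells were at 0.0 CPM. Hbegf stood at 3.69 in cluster 4 (12 neg cells) and 3.46 in cluster 16 (20 neg cells). The order of the genes rests in part on such clusters. Cthrc1 was higher in pos cells in 16 of 18 clusters compared, Cenpa in 14, Cd63 and Nt5dc2 in 13 each, Hbegf and Rpp25 in 12 each, Slc24a3 in 11 and Plpp4 in 7. The count of Plpp4 includes clusters at 0.0 CPM in both gates, such as clusters 9, 10 and 15, which could not be higher in pos. The median number of genes per cell was lower in pos than in neg cells in 7 of 8 animals, for example 3902 against 7352 in Homecage animal 2, and its part in these ratios was not tested.

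Whether a reporter read goes with the same difference was asked in 7 animals that took no part in the gate comparison, by setting neurons with a reporter read against neurons without one. Of these, Fear-Recall animal 4 had 117 pos and 0 neg cells, so its split lies within the pos gate. Homecage animal 3 lies on the plate that carries both gate names, and the cells of the others carry no gate name. None of the 8 genes passed edgeR's quasi-likelihood test with the animal as a block, where 462 of 14691 genes did (3.14%), and 0 of the 8 had an unadjusted p under 0.05. DESeq2 passed 0 of the 8 as well. These counts are over all neurons. In excitatory neurons alone Rpp25 had an unadjusted p of 0.04439 (−1.72, SE 0.75, adjusted p = 0.2851, edgeR). It was higher with a read there in 0 of 7 animals. The other genes had no unadjusted p under 0.05 in either class, and Plpp4 was not tested in excitatory neurons. Inhibitory neurons made up 39.5% ± 15.5 of reporter-read and 33.0% ± 8.16 of reporter-free cells (SD, n = 7), with the read share higher in 4 of 7 animals.

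Cd63 was at 29.7, 106 and 174 CPM in reporter-read neurons, against 25.2, 76.6 and 117 CPM in reporter-free neurons (lowest, median and highest of 7 animals). It was higher with a read in 4 of 7, at 0.20 on the log2 scale (SE 0.28, adjusted p = 0.7901, edgeR). Cthrc1 lay on the other side of 0 from its gate ratio. It was at 7.14, 20.1 and 51.4 CPM in reporter-read and 3.95, 37.4 and 53.4 CPM in reporter-free neurons, higher with a read in 1 of 7 (−0.61, SE 0.50, adjusted p = 0.6194). The exception was Homecage animal 5, at 25.4 CPM in reporter-read and 3.95 CPM in reporter-free neurons, and without it the adjusted p was 0.1332, the smallest of the 8 genes under any alternative in this comparison.

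Cenpa, with the largest gate ratio, was at 5.22, 20.9 and 74.9 CPM in reporter-read neurons, against 6.40, 12.99 and 29.96 CPM in reporter-free neurons. It was higher with a read in 3 of 7, at 0.25 (SE 0.53, adjusted p = 0.8714). Hbegf was at 9.39, 16.3 and 47.6 CPM in reporter-read and 7.62, 16.7 and 33.8 CPM in reporter-free neurons (0.20, SE 0.41, adjusted p = 0.8688). Plpp4 had the widest spread, with log2 ratios of −3.94 in Fear-Only animal 5 and 3.36 in Fear-Recall animal 5, and a fold change of −0.97 (SE 0.90). For Slc24a3, Rpp25 and Nt5dc2 the log2 fold changes were 0.23 (SE 0.21), 0.15 (SE 0.29) and −0.22 (SE 0.56). The spread of these animals is wide, and the result does not show that the genes were alike in both sets of neurons.

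Within the pos gate of the 8 animals of the gate comparison, cells with and without a reporter read were then set side by side, as a description chosen after the data were seen, in CPM without TMM scaling. Cd63 was lower in reporter-read than in reporter-free pos cells in 8 of 8 animals, as were 2.03% of genes. It was at 37.4, 75.5 and 147 CPM in reporter-read and 111, 159 and 236 CPM in reporter-free pos cells (mean log2 ratio −1.07 ± 0.49). Hbegf was lower in 8 of 8 as well, at 0.0, 21.9 and 28.6 CPM in reporter-read and 27.0, 35.6 and 74.8 CPM in reporter-free pos cells (−1.43 ± 2.01). Without Homecage animal 2, whose 20 reporter-read pos cells held no Hbegf read, that ratio was −0.77 ± 0.78. With the reporter called after thinning, Cd63 was lower in 7 of 7 animals (−0.74 ± 0.71) and Hbegf in 4 of 7 (−0.22 ± 0.89). Rpp25 was lower in 7 of 8 (−0.43 ± 0.39) and Nt5dc2 in 6 of 8 (−0.69 ± 0.80), while Cthrc1, Plpp4, Slc24a3 and Cenpa were lower in 4 or 5 of 8.

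The cells differed beside these genes. Reporter-read pos cells were inhibitory in 32.6% ± 6.78 and reporter-free pos cells in 50.01% ± 12.7. The low-gene cluster held 1.99% ± 2.97 of reporter-read and 17.2% ± 18.3 of reporter-free pos cells, and median genes per cell averaged 6921 in reporter-read and 5008 in reporter-free pos cells. Without the low-gene cluster the mean log2 ratio of Cd63 was 0.04 (lower in 6 of 8 animals), that of Hbegf −0.68 (lower in 6 of 8) and that of Rpp25 0.01 (lower in 4 of 8). Within inhibitory neurons it was −0.52 for Cd63, −0.25 for Hbegf (higher in 4 of 6) and 0.21 for Rpp25, and in excitatory neurons it was 0.41 for Cd63 and 0.19 for Hbegf. In inhibitory neurons the means of both genes thus stayed below 0, and Cd63 was lower with a read in 5 of 6 animals. In excitatory neurons both means lay above 0.

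**Figure D4:**
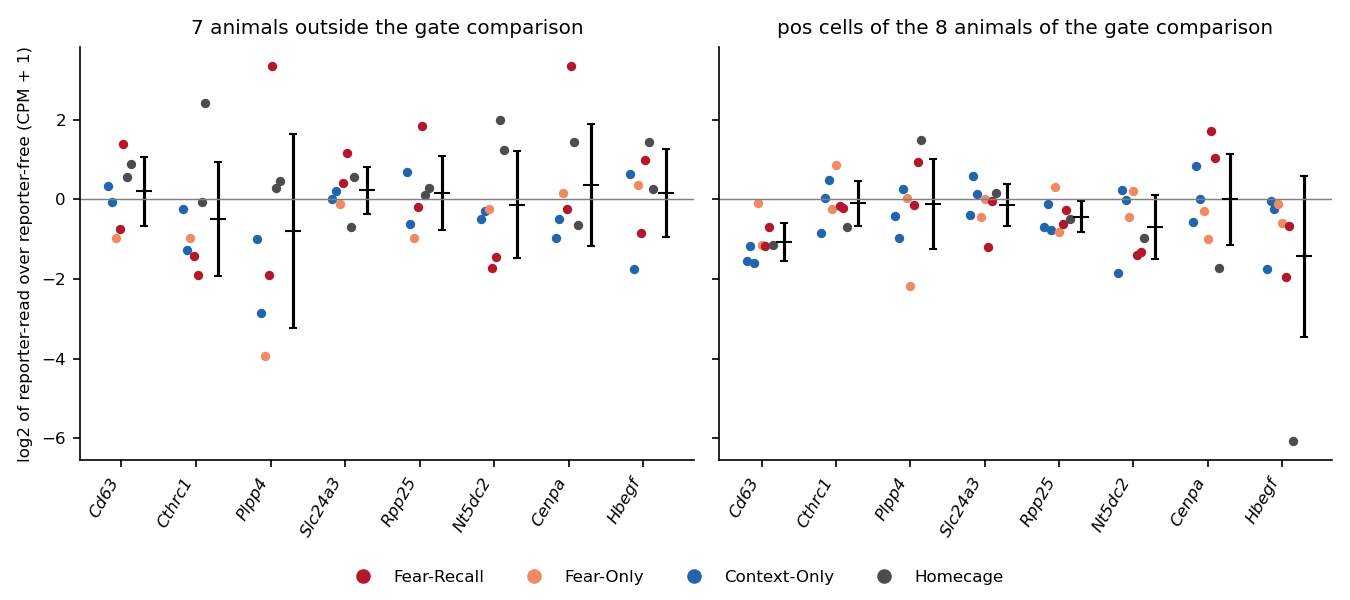
Log2 of reporter-read over reporter-free CPM (CPM + 1) for each gene and animal, with the mean and SD as a black cross and bar. In the 7 animals outside the gate comparison the points lie on both sides of 0 for every gene, and in the pos cells of the 8 animals of the gate comparison all points of Cd63 and Hbegf lie below 0.

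Conditions were compared among pos neurons, and over all neurons where Homecage takes part, since Homecage has a single animal with a pos sum of 10 or more cells. The sums over all neurons mix the gates unequally. Fear-Recall animal 3 gave 325 pos and 94 neg cells and Fear-Recall animal 4 gave 117 and 0. Homecage animal 2 gave 85 and 102 and Homecage animal 4 gave 0 and 17, while some animals carry no gate names. Gate mix and condition cannot be told apart in these sums. None of the 8 genes passed edgeR's test in any of the 3 comparisons of pos neurons, where 0.0% of 20381 genes passed. None passed in the 3 comparisons with Homecage (0.0% of 19893 genes), or in the test of whether the gate difference itself differed between Fear-Recall and the other conditions (0.0% of 20888 genes). Over all genes, 688 had an unadjusted p under 0.05 in Fear-Recall against Context-Only, where DESeq2 passed 24. In the pos comparisons, 0 of the 8 had an unadjusted p under 0.05, and DESeq2 called 0 of the 8, although it gave 2 an unadjusted p under 0.05 in Fear-Recall against Context-Only. Among the comparisons with Homecage, 2 of the 8 had an unadjusted p under 0.05 in Fear-Recall, 1 in Fear-Only and 0 in Context-Only, and DESeq2 called 0 of the 8 in each. In Fear-Recall against Context-Only all 8 genes had a fold change below 0 among pos neurons, with a median log2 of −0.50 beside 0.02 over all genes. The share of all genes below 0 is not given here. In inhibitory pos neurons alone Cenpa lay above 0 (0.05). In excitatory pos neurons alone Slc24a3 (0.18) and Plpp4 (5.72, nearly absent there) did so.

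Cd63 was at 99.5, 67.7 and 33.1 CPM in the pos neurons of 3 Fear-Recall animals, at 154 and 103 CPM in Fear-Only, at 215, 115 and 54.5 CPM in Context-Only and at 151 CPM in the Homecage animal. The conditions overlapped, and Fear-Recall against Context-Only stood at −0.95 (SE 0.53, adjusted p = 0.9698, edgeR). Between animals of the same mouse number Cd63 was lower in Fear-Recall than in Context-Only in 3 of 3, and with that number as a block its adjusted p was 0.521 (edgeR). Cthrc1 was at 32.3, 20.2 and 17.2 CPM in Fear-Recall, 35.2 and 30.1 CPM in Fear-Only, 52.6, 41.8 and 24.2 CPM in Context-Only and 51.2 CPM in Homecage (Fear-Recall against Context-Only −0.77, SE 0.35, adjusted p = 0.9698). It too was lower in Fear-Recall in 3 of 3 pairs, with the same adjusted p of 0.521 under the block. Nt5dc2 was at 10.5, 13.7 and 11.6 CPM in Fear-Recall, 16.5 and 16.6 CPM in Fear-Only and 48.3, 13.3 and 13.1 CPM in Context-Only, where a single animal stood apart. In pos neurons, inhibitory cells made up 27.4% to 35.6% in Fear-Recall, 40.8% to 42.6% in Fear-Only and 31.3% to 42.5% in Context-Only.

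Over all neurons, Cd63 was at 73.9, 58.3, 32.6 and 42.7 CPM in the 4 Fear-Recall animals, against 85.6, 154, 96.9 and 88.9 CPM in the 4 Homecage animals. These groups did not overlap, as was so in this direction for 1.36% of genes, and the log2 fold change was −1.01 (SE 0.44, unadjusted p = 0.03379, adjusted p = 0.7726, edgeR). Inhibitory neurons made up 25.5% to 31.0% of Fear-Recall and 29.4% to 52.1% of Homecage cells. The mix of gates also differed between these animals, and its part was not tested. Within inhibitory neurons Cd63 was at 231, 174, 134 and 136 CPM in Fear-Recall, against 242, 311 and 258 CPM in Homecage.

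Cthrc1 over all neurons was at 25.8, 16.1, 16.9 and 20.2 CPM in Fear-Recall, against 33.0, 53.4, 103 and 12.9 CPM in Homecage, so the groups overlapped. Its log2 fold change was −1.34 (SE 0.47, unadjusted p = 0.01091, adjusted p = 0.7726), and −0.73 without Homecage animal 4, whose 17 cells gave the value of 103 CPM. Cthrc1 had a further unadjusted p of 0.03113 in Fear-Only against Homecage (−1.10, SE 0.47, adjusted p = 0.9404). In the test on the gate difference Plpp4 had an unadjusted p of 0.03081 (log2 0.83, SE 0.33, adjusted p = 1.0). Over all neurons, the other 5 genes had no unadjusted p under 0.05 in any of the 7 comparisons that involve conditions. In excitatory neurons alone, Hbegf had an unadjusted p of 0.01103 in Context-Only against Homecage (log2 2.33, SE 0.82, adjusted p = 0.8055) and of 0.02482 in Fear-Recall against Homecage (2.05, SE 0.84, adjusted p = 0.7704). Its excitatory levels were 3.15, 4.96, 8.20 and 1.49 CPM in Fear-Recall and 7.91, 4.18, 5.04, 5.26 and 4.45 CPM in Context-Only, against 0.726, 0.890, 0.0 and 2.62 CPM in Homecage. Context-Only lay above every Homecage animal, and Fear-Recall overlapped Homecage through Fear-Recall animal 5. The share of all genes with such a separation in excitatory neurons was not computed. Nt5dc2 in excitatory pos neurons had an unadjusted p of 0.03933 in Fear-Recall against Context-Only (−2.47, SE 1.03, adjusted p = 0.9398), where Context-Only animal 2 stood at 25.99 CPM and the other 2 at 1.66 and 2.86 CPM.

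**Figure D5:**
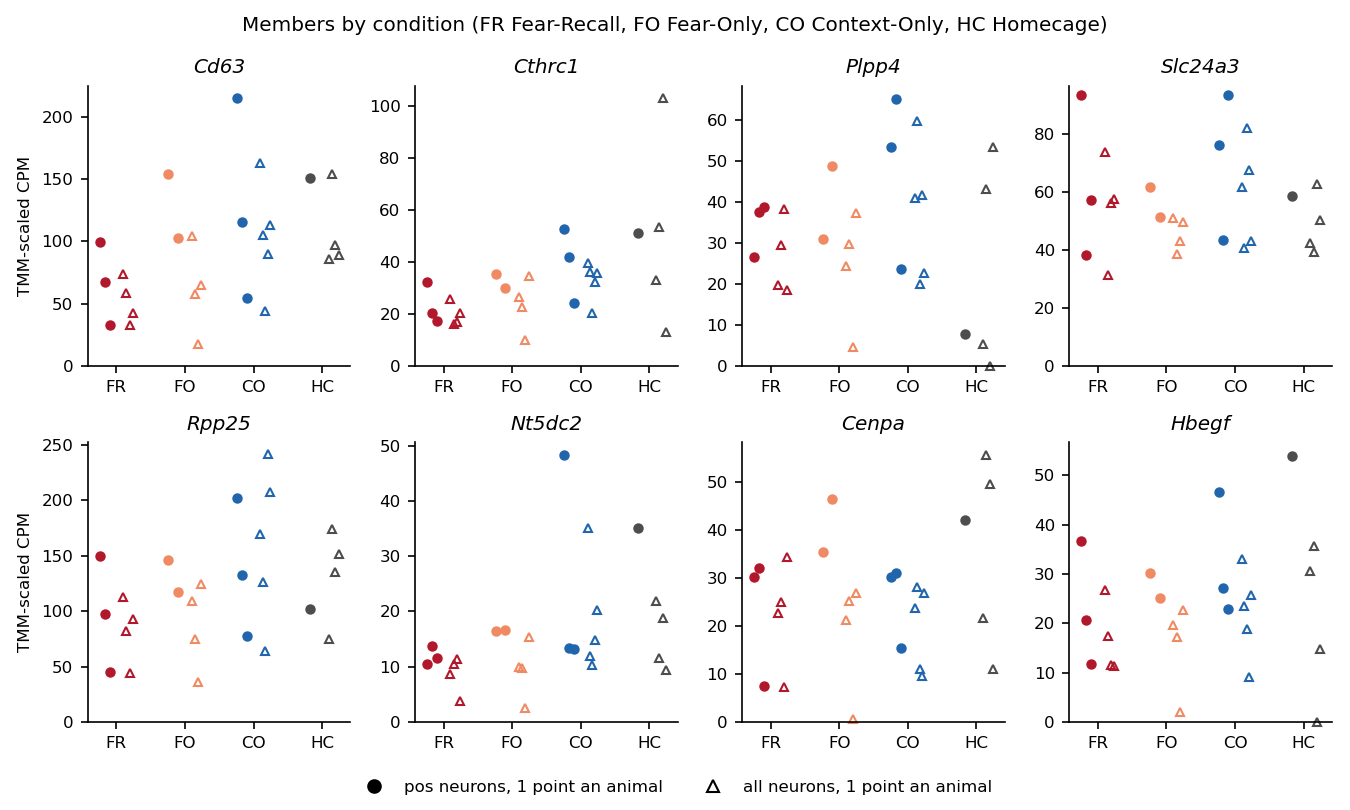
TMM-scaled CPM of the 8 genes by condition, with filled circles for pos neurons and open triangles for all neurons, 1 point an animal. The 4 Fear-Recall triangles of Cd63 lie between 32.6 and 73.9 CPM, below the 4 Homecage triangles between 85.6 and 154 CPM.

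Relatives of the 8 genes were looked at in lists of families, partners and pathways. With the gate 0.287% of all 17752 genes passed (edgeR), so a count of 0 in lists this short does not set the relatives apart from other genes. In pos against neg neurons none of the 21 tetraspanin and endosomal sorting genes tested passed in either direction (3 had an unadjusted p under 0.05), and their median log2 fold change was −0.12 beside 0.02 over all genes. The same count of 0 was found for 12 secreted matrix and planar polarity genes, 11 phospholipid phosphatases, 6 sodium-calcium exchangers, 12 RNase P and MRP subunits, 9 nucleotidase genes, 16 centromere and proliferation genes and 15 genes of EGF ligands, receptors and sheddases. Their genes with an unadjusted p under 0.05 numbered 4 among the phosphatases, 3 in the EGF list, 2 among the exchangers, 1 each among the matrix, RNase P and nucleotidase genes, and 0 in the centromere list. The centromere list, which holds the Cenpa chaperone gene Hjurp and the cycling marker Mki67, had a median of −0.12 with 6 of 16 above 0. Hjurp itself was at 16.2 ± 9.18 CPM in pos and 17.3 ± 5.61 CPM in neg neurons (SD, n = 8), higher in 2 of 8 animals.

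The 2 genes of smallest p in each list lay on both sides of 0, and none of those from the 8 family lists passed. Erbb4, a receptor of Hbegf and also found in Pvalb neurons, was at 45.8 ± 14.4 CPM in pos and 18.7 ± 5.93 CPM in neg neurons, higher in 8 of 8 animals (SE of the log2 fold change 0.27, adjusted p = 0.09424, edgeR). The other receptor, Egfr, was at 20.1 ± 8.45 CPM in pos and 9.17 ± 3.28 CPM in neg neurons, higher in 7 of 8 (1.02, SE 0.28, adjusted p = 0.2361). The phosphatase gene Plpp2 was at 6.53 ± 1.98 CPM in pos and 1.86 ± 1.25 CPM in neg neurons, higher in 8 of 8 (2.09, SE 0.41, adjusted p = 0.08443). Its relative Plpp6 lay below 0, at 18.1 ± 5.88 CPM in pos neurons, against 26.7 ± 8.14 CPM in neg neurons, lower in 8 of 8 (−0.57, SE 0.17, adjusted p = 0.2788).

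Among the tetraspanins, Tspan6 was at 72.2 ± 11.9 CPM in pos neurons, against 51.0 ± 6.51 CPM in neg neurons, higher in 8 of 8 (adjusted p = 0.1343), while Tspan14 was at 14.5 ± 6.40 CPM in pos neurons, against 25.0 ± 7.73 CPM in neg neurons, higher in 1 of 8 (−0.86, SE 0.22, adjusted p = 0.1756). The exchanger genes Slc24a4 and Slc8a1 were lower in pos in 8 of 8 animals, opposite in sign to their relative Slc24a3. Slc24a4 was at 4.94 ± 2.91 CPM in pos neurons, against 10.6 ± 4.68 CPM in neg neurons (−1.15, adjusted p = 0.3672), and Slc8a1 at 2.19 ± 1.15 CPM in pos neurons, against 4.61 ± 1.19 CPM in neg neurons (−1.31, adjusted p = 0.3873). Among the RNase P and MRP subunits 10 of 12 were above 0, and the 2 of smallest p were Rpp38 (0.67, SE 0.26, adjusted p = 0.4073) and Pop4 (0.22, SE 0.11, adjusted p = 0.5088). The remaining lists gave Wnt5a at 1.24 (adjusted p = 0.3557), Col19a1 at 0.62 (adjusted p = 0.4861), Nt5dc3 at 0.54 (adjusted p = 0.3897), Nt5c3 at −0.15 (adjusted p = 0.7098) and Cenpn at 1.61 (SE 1.36, adjusted p = 0.7019).

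The list of immediate early genes, named for genes that neurons switch on within a short time of firing, gave 2 of 20 that rose with the gate and 17 above 0. Of all genes, 0.287% passed in this contrast. Scg2, a granin of dense-core vesicles, was at 844 ± 181 CPM in pos neurons, against 421 ± 73.3 CPM in neg neurons (fold change 0.995 on the log2 scale, SE 0.14, adjusted p = 0.01725). Fosl2, a subunit of AP-1, was at 53.7 ± 13.9 CPM in pos and 23.4 ± 16.2 CPM in neg neurons (1.38, SE 0.22, adjusted p = 0.03197). Both calls are over all neurons, where the gates differ in class. In inhibitory neurons alone neither passed, with Scg2 at 0.87 and Fosl2 at 1.56 (adjusted p = 0.4464 each, edgeR). In excitatory neurons alone the list gene of smallest p was Egr1 (0.71, SE 0.09, adjusted p = 0.03816, edgeR). With a reporter read in the 7 other animals, Egr4 rose by 1.23 on the log2 scale (SE 0.16, adjusted p = 0.02014) and Nr4a1 by 0.57 (SE 0.11, adjusted p = 0.03126), both transcription factors, out of the same 20, beside 3.14% of all genes.

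In those 7 animals the families gave few calls, where 3.14% of all genes passed. None of the calls with a reporter read, Egr4 and Nr4a1 included, was left when Context-Only animal 5, Context-Only animal 5b, Fear-Recall animal 5 or Homecage animal 5 was left out, since 0 genes passed in each of those fits. The tetraspanin Tspan7 rose by 0.31 (SE 0.07, adjusted p = 0.04502) and the lysosomal protease gene Ctsd by 0.41 (SE 0.09, adjusted p = 0.0454) with a reporter read, 2 of 19 tested in their list. Plppr2 rose by 0.74 (SE 0.12, adjusted p = 0.02438) and Plppr3 by 1.23 (SE 0.22, adjusted p = 0.02701), 2 of 11 in the phosphatase list, and both belong to its branch of plasticity-related proteins. Pop7, a subunit of RNase P, fell by 0.82 (SE 0.14, adjusted p = 0.02526), 1 of 11 in its list. The other 5 family lists had no call in this comparison.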

How the data were processed

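Gene expression was measured by Smart-seq2 in single cells of the medial prefrontal cortex, and the deposited table holds raw read counts per gene and cell, as deposited by the authors. Bowtie 0.12.2 and the builds mm8 and mm10 are named per the submitters' processing notes, while the sources used here do not name the step that counted reads per gene. Of 3530 cells, 212 cells of set 1 (mouse number 1) were not used here: their column names share no common start by which the columns could be listed in groups, so they were never entered, although the planned tests covered every animal with enough cells. What they would change was not tested. All cells used had at least 500 genes and 10000 counts, no doublet caller was run, and no pair of cells held identical counts.

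The 8 genes and all gene lists were chosen with earlier results of these data known. Cells were clustered with scanpy 1.11.5 (2000 variable genes, 30 components, 15 neighbours, Leiden resolution 1) and named from markers. Counts were summed per animal and arm over at least 10 cells, and the reporter was left out of libraries and tests. Tests used edgeR 4.0.16 (quasi-likelihood, TMM, filterByExpr with a minimum count of 10) with Benjamini-Hochberg adjustment over all genes at 0.05, with the animal as a block where arms share animals. Per-animal ratios use a pseudocount of 1 CPM, which understates differences of low genes. Depth per cell is in the opening above. Named genes are the 8, the 3 nearest genes of each by correlation over clusters, and the 2 genes of smallest p in each list. Where a list gene is named for a comparison, this rule was applied in that comparison.

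Alternatives were DESeq2 1.42.0, limma 3.58.1, other scaling and filters, single classes, a stricter reporter call of 5 reads, and each animal left out. The cluster-share ratio, the within-cluster ratio and the split of pos cells by reporter read were added after the data were seen. Whether shared mouse numbers pair animals was checked by correlating deviations from condition means. All 27 pairs that share a number over all neurons (r from 0.20 to 0.80) and all 7 among pos neurons (0.16 to 0.83) were above 0.1. Animals of unlike number were not correlated, so the check cannot show that the numbers pair animals. The main condition tests carry no block for the mouse number, and fits with that block are given as alternatives. The scripts were tested on simulated data.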

Additional observations from a re-analysis of the deposited data

Results flagged for a closer look

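Of 72 groups of 4 to 10 animals looked at, 4 held an animal far from the rest, where chance alone gives about 1 in 20. Homecage animal 3 had 154.0 CPM of Cd63 over all neurons, and the next Homecage animal had 96.9 CPM. Homecage animal 5 had a log2 ratio of Cthrc1 of 2.42 between reporter-read and reporter-free neurons, and the next of the 7 animals had −0.05. Homecage animal 2 had a log2 ratio of Cenpa of 3.11 between pos and neg inhibitory neurons, and the next of the 6 animals had 1.28. The same animal had a log2 ratio of Hbegf of −6.09 between reporter-read and reporter-free pos cells, with 20 and 65 cells, and the nearest of the other animals had −1.95. All 4 values belong to Homecage animals. The part of cell number or plate in them was not tested.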

How the results depend on the processing

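None of the 8 genes was called in any of 8 comparisons under 156 alternative fits, and 98 of 1247 values of these genes had the other sign, uncalled both ways. The smallest adjusted p was 0.1332 with reporter reads, 0.521 in Fear-Recall against Context-Only and 0.1714 in Fear-Recall against Homecage. With the mouse number as a block, 4 of the 8 genes had an unadjusted p under 0.05 in Fear-Recall against Context-Only and 0 were called, and the block changed no other call. The reporter comparison called 462 genes, against 0 without the animal block (1364 at an unadjusted p under 0.05), 1463 by DESeq2, 305 in excitatory neurons, 0 in inhibitory neurons (892), 264 without a filter on low counts, 33 without Fear-Recall animal 4 and 143 without Fear-Only animal 5. It called 0 without Context-Only animal 5, Context-Only animal 5b, Fear-Recall animal 5 or Homecage animal 5. Where edgeR called 0, DESeq2 called 24, 7 and 18 genes among the pos comparisons (Fear-Recall against Context-Only, Fear-Recall against Fear-Only, Fear-Only against Context-Only), 69, 89 and 92 in Fear-Recall, Fear-Only and Context-Only against Homecage, and 1 for the gate difference. Leaving out Context-Only animal 2 gave 2 calls each in Fear-Recall against Fear-Only and Fear-Only against Context-Only, and leaving out Homecage animal 5 gave 1 in each comparison with Homecage. Of 136 pos over neg ratios under alternatives, 25 moved by more than the spread and 3 changed sign, all in excitatory neurons: Cd63 −0.20, Plpp4 −0.18 and Rpp25 −0.14. All 64 that left out an animal moved by less than the spread. Between reporter-read and reporter-free pos cells the ratio of Cd63 changed sign without the low-gene cluster (0.036), in inhibitory neurons without it (0.33) and in excitatory neurons (0.41), and that of Rpp25 without the low-gene cluster (0.014), in inhibitory neurons (0.21), in inhibitory neurons without it (0.22) and in excitatory neurons (0.11). That of Hbegf changed sign in inhibitory neurons without the low-gene cluster (0.044) and in excitatory neurons (0.19), and that of Nt5dc2 in inhibitory neurons with that cluster (0.038) and without it (0.42). The causes were not tested. Plpp4 in Lamp5 Ndnf-like cells rests on 3 reads in 107 cells, so differences among the gates there were not detectable at this depth.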
